A study of Mus musculus with 6 samples.

Results

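Chemokines are small secreted or membrane-anchored proteins that direct the movement of cells, and 10 chemokine genes of the mouse retina are described here: Cx3cl1, Cxcl12, Cxcl13, Cxcl14, Cxcl16, Ccl2, Ccl5, Ccl9, Ccl25 and Ccl27a. They were chosen by symbol, and all 10 were matched exactly among the 24346 gene symbols of each table. Retinas of Unc119+/+ mice (wild type, 3 libraries) and Unc119-/- mice (knockout, 3 libraries) were profiled as stranded mRNA libraries. Unc119 encodes a carrier of lipid-modified proteins in photoreceptors, and the study's title links its loss to inflammatory signalling. The sources used here give neither strain nor age nor the number of animals behind a library, so p-values reflect only how far these libraries scatter, and some of that scatter may be technical. In bulk retina, fewer cells of a type and less RNA per cell cannot be told apart.

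A chemokine binds a G protein-coupled receptor on its target cell, which then moves toward higher chemokine. Some members are made steadily by resting tissue. Fractalkine (Cx3cl1) is made by neurons and read by microglia through Cx3cr1, and Cxcl12 guides cells that carry Cxcr4. Others, such as Ccl2 and Ccl5, are nearly silent at rest and are induced in inflamed tissue, where they draw monocytes and lymphocytes. The family is divided by the spacing of the first cysteines of the mature protein, which are adjacent in the CC class, separated by 1 residue in the CXC class and by 3 in Cx3cl1.

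The coding stretches around that first pair show the spacing that names each class, with 1 member of each class given. They were read from GENCODE M21 transcripts (GRCm38), 5′ to 3′, with the 2 cysteine codons in capitals.
Cx3cl1: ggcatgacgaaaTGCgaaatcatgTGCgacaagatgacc
Cxcl13: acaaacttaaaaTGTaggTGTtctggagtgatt
Ccl25: gcctttgaagacTGCTGCctgggttaccag
The codons are adjacent in Ccl25, 1 codon apart in Cxcl13 and 3 codons apart in Cx3cl1. The same search found the pattern of its class in the coding sequence of each of the 10 members.

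Expression is given as FPKM, the number of sequenced fragments scaled by transcript length and library size, so levels can be compared between genes. Differences between knockout and wild type were tested with limma on log2(FPKM + 1) over the 14176 genes with a mean of at least 0.5 FPKM, and a gene is called at a Benjamini-Hochberg adjusted p under 0.05. Values of single libraries are given throughout in the order of replicates 1, 2 and 3. Unc119 itself measured 1191, 1187 and 1206 FPKM in the wild-type libraries against 510, 460 and 449 FPKM in the knockout libraries, so its knockout mean was 0.396 of the wild-type mean, the direction the labels give. The Mueller glia markers Glul, Rlbp1, Slc1a3, Aqp4 and Vim summed to between 1181 and 1288 FPKM in every library, so the labelled tissue carries markers of retinal glia. Relative depth ran from 0.763 in wild-type replicate 1 to 1 in wild-type replicate 2. Xist and Y-linked genes marked 3 libraries as male (the first pair of wild-type replicates and knockout replicate 1) and 3 as female. Lens markers summed to between 0.423 and 593 FPKM in 5 libraries and to 10149 FPKM in knockout replicate 3, which stands apart in that respect. Cornea, ciliary body and optic nerve markers summed to 11.6 to 23.1 FPKM in wild type against 43.3, 20.4 and 78.4 FPKM in the knockout libraries. Pigment epithelium markers summed to 19.2 to 36.1 FPKM in wild type against 16.4 to 55.5 FPKM in knockout. The part of these tissues in the chemokine values was not tested.

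The chemokine genes lay in an upper set of 6 with means of at least 2.53 FPKM and a lower set of 4 with means of at most 0.588 FPKM, and no member was called in either direction. Of the 10 members, 8 reached the filter and Ccl2 and Ccl5 did not. The background over all genes was 0.205% called higher and 0.0282% called lower. At an unadjusted p under 0.05 by limma, 1 member (Cxcl13) was higher and none was lower. Among all genes tested 1276 were under that p in either direction, and 736 of them (5.19% of all genes tested) were higher. The genotypes did not overlap in Cxcl13 and Cxcl16, each with every knockout library above every wild-type library, against 7.83% of all genes tested. The opposite arrangement, found in 8.04% of all genes tested, was seen in no member. Cxcl13 entered the test only through its knockout values (wild-type mean 0.307 FPKM) and Ccl9 only through its wild-type values (knockout mean 0.407 FPKM), so neither gene supports a change by its place in these counts. As a description, 5 of the 8 tested were higher and 3 lower in the knockout, with a median log2 difference of 0.17, while the median of all genes tested was −0.0017 (6987 higher, 7189 lower).

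**Figure D1:**
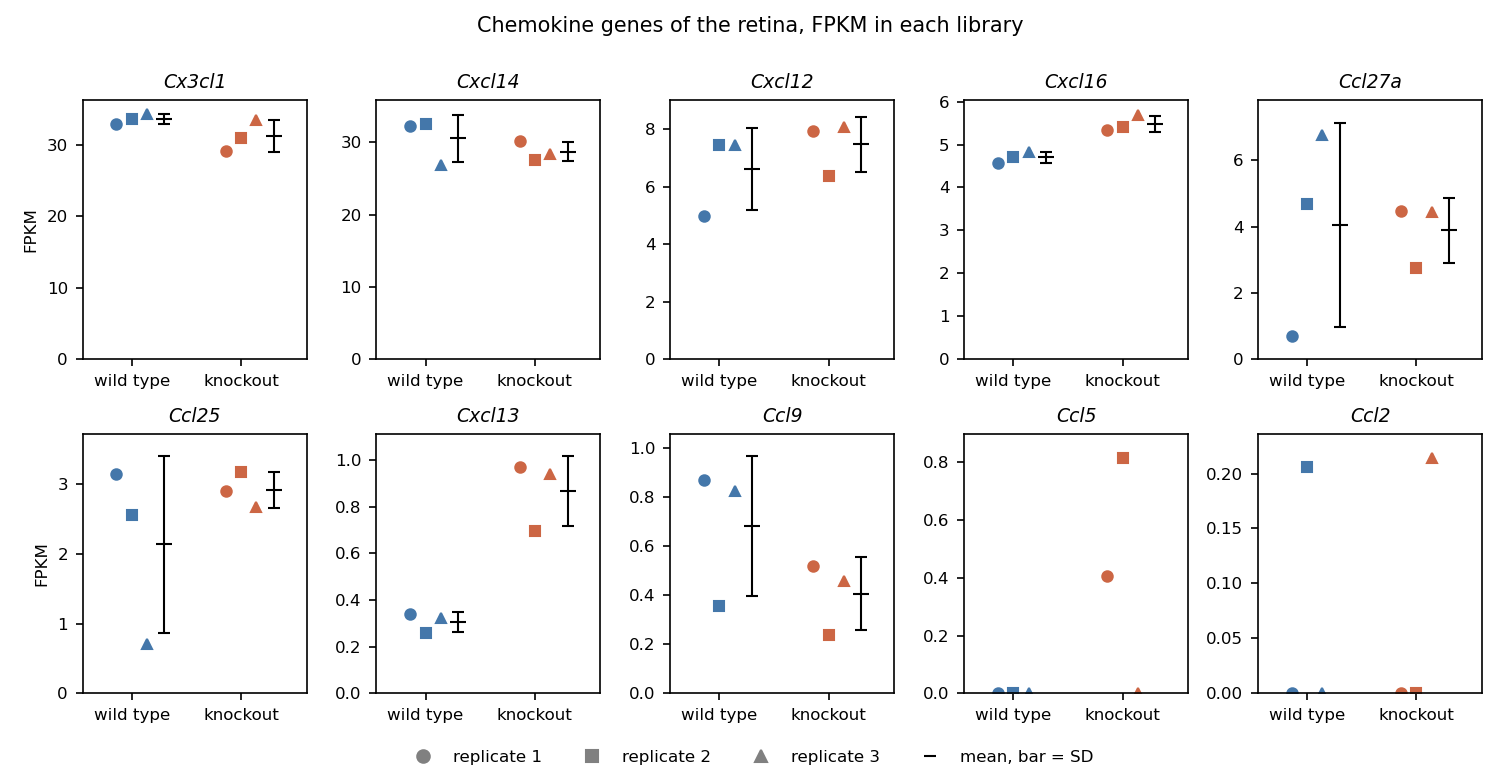
FPKM (y axis, linear, from 0) of the 10 chemokine genes in 3 wild-type and 3 knockout libraries, ordered by mean level; symbols mark the replicate number, and the dash and bar give the mean and SD (n = 3), left out for Ccl5 and Ccl2, which are listed at 0 in some libraries. Only Cxcl16 and Cxcl13 show no overlap between genotypes, and the single low wild-type libraries of Cxcl12, Ccl27a and Ccl25 stand out.

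By mean level over the 6 libraries the order was Cx3cl1 (32.4 FPKM), Cxcl14 (29.6), Cxcl12 (7.04), Cxcl16 (5.09), Ccl27a (3.97), Ccl25 (2.53), Cxcl13 (0.588), Ccl9 (0.546), Ccl5 (0.203) and Ccl2 (0.0700). Cx3cl1 and Cxcl14 together made up 72.5% to 81.7% of the summed FPKM of the 10 genes in each library. Their ranges overlapped, and Cx3cl1 was the higher in 5 of the 6 libraries. Cxcl14 and Cxcl12 were the only neighbours in the order whose ranges over the 6 libraries did not overlap. Cxcl12 was nevertheless above Cxcl16 in each of the 6 libraries, whereas Cxcl13 was above Ccl9 in only 3. Among all 24346 symbols, Cx3cl1 ranked 2472 and Cxcl14 ranked 2767, while Cxcl13 ranked 13941 and Ccl2 ranked 16543.

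Cx3cl1 (ENSMUSG00000031778.13, chromosome 8, 94772009 to 94782427, plus strand) encodes fractalkine, a membrane-bound chemokine that proteases release as a soluble form. It measured 32.9, 33.6 and 34.3 FPKM in the wild-type libraries against 29.1, 31.0 and 33.5 FPKM in the knockout libraries. Knockout replicate 3 lay within the wild-type range and the other 2 knockout libraries below it. The log2 difference was −0.10 (SE 0.06, 95% interval −0.25 to 0.04, limma adjusted p = 0.641). Within males (2 wild-type libraries, 1 knockout) the log2 difference was −0.19, and within females (1 wild-type library, 2 knockout) it was −0.08. Markers of ganglion cells, 1 of the neuron classes that make fractalkine, summed to 285 to 320 FPKM across wild-type libraries and 281 to 291 FPKM across knockout libraries. Of the 6 ganglion cell markers 1 was higher in the knockout, and their part in the Cx3cl1 values was not tested.

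Cxcl14 (ENSMUSG00000021508.11, chromosome 13, 56288643 to 56296551, minus strand) is an evolutionarily conserved chemokine that many epithelia and neurons make without induction. It measured 32.3, 32.5 and 26.8 FPKM in the wild-type libraries against 30.1, 27.6 and 28.4 FPKM in the knockout libraries. All 3 knockout libraries lay inside the wild-type range. On the log2 scale knockout differed from wild type by −0.08 (SE 0.08, 95% interval −0.27 to 0.10, limma adjusted p = 0.772).

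Cxcl12 (ENSMUSG00000061353.11, chromosome 6, 117168535 to 117181367, plus strand) encodes stromal cell-derived factor, which vessels and stroma make and which acts through Cxcr4. It measured 4.97, 7.44 and 7.44 FPKM in the wild-type libraries against 7.93, 6.38 and 8.08 FPKM in the knockout libraries. Wild-type replicate 1 was the low library, and the other 5 lay between 6.38 and 8.08 FPKM. The log2 difference was 0.16 (SE 0.15, 95% interval −0.19 to 0.52, limma adjusted p = 0.762), and without wild-type replicate 1 it was −0.0021. Endothelial and pericyte markers summed to 75.5 to 86.3 FPKM across wild-type libraries and 76.8 to 87.2 FPKM across knockout libraries, with 4 of the 7 tested markers higher in the knockout. Most of that sum was Kdr (mean 53.0 FPKM), while Pecam1 had a mean of 2.50 FPKM, so the sum mainly follows 1 gene. The part of these cells in the Cxcl12 values was not tested.

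Cxcl16 (ENSMUSG00000018920.11, chromosome 11, 70453983 to 70459984, minus strand) is the other chemokine made as a membrane protein, and it also serves as a scavenger receptor on macrophages. It measured 4.57, 4.71 and 4.82 FPKM in the wild-type libraries against 5.33, 5.42 and 5.69 FPKM in the knockout libraries. The 2 genotypes did not overlap, with a knockout mean of 5.48 ± 0.189 FPKM against 4.70 ± 0.124 FPKM in wild type (SD, n = 3 each), 1.17 times as high. Knockout minus wild type came to 0.18 (SE 0.08, 95% interval −0.0040 to 0.37, limma unadjusted p = 0.0539 and adjusted p = 0.563), so it did not pass. The exact permutation test, two-sided, gave p = 0.1, the smallest that 3 against 3 can give. The difference was 0.17 within males and 0.17 within females, and it was 0.16 without knockout replicate 3. Its exons share 552 of 3021 bases with Zmynd15 on the opposite strand. Zmynd15 measured 0.497 ± 0.160 FPKM in wild type against 0.781 ± 0.269 FPKM in knockout (SD, n = 3 each). The sources used here do not say whether counting used the strand, so reads of the shared bases cannot be told apart.

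Microglia and macrophages are known sources of Cxcl16 and of the receptor Cx3cr1, and markers of these cells went with genotype. All 12 listed markers had a higher knockout mean, 8 of them did not overlap between genotypes (7.83% of all genes tested did so in that direction) and 2 were called (0.205% of all genes tested), with Cx3cr1 counted among both the markers and the receptors. The genotypes overlapped in Csf1r, P2ry12, Itgam and Tmem119, and Csf1r had means of 4.65 FPKM in wild type against 5.05 FPKM in knockout, whereas Ctss had means of 10.5 against 16.3 FPKM. Their summed level was 36.0 to 43.3 FPKM over the wild-type libraries against 64.1 to 72.6 FPKM over the knockout libraries, and none of them was at 0 in all libraries. The part of these cells in the Cxcl16 and Cxcl13 values was not tested. Markers of lymphocytes and neutrophils stayed low, with sums of 0.585 to 1.45 FPKM over the wild-type libraries against 0.704 to 2.22 FPKM over the knockout libraries. The T cell genes Cd3e and Cd3g, the B cell gene Ms4a1 and the killer cell gene Nkg7 were listed at 0 in all 6 libraries. The neutrophil genes S100a9 and S100a8 did not reach the filter. S100a9 was listed at 0 in each wild-type library and at 0.833, 1.26 and 0.401 FPKM in the knockout libraries. S100a8 was listed at 0, 0.654 and 0.813 FPKM in the wild-type libraries and at 0 in each knockout library.

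**Figure D2:**
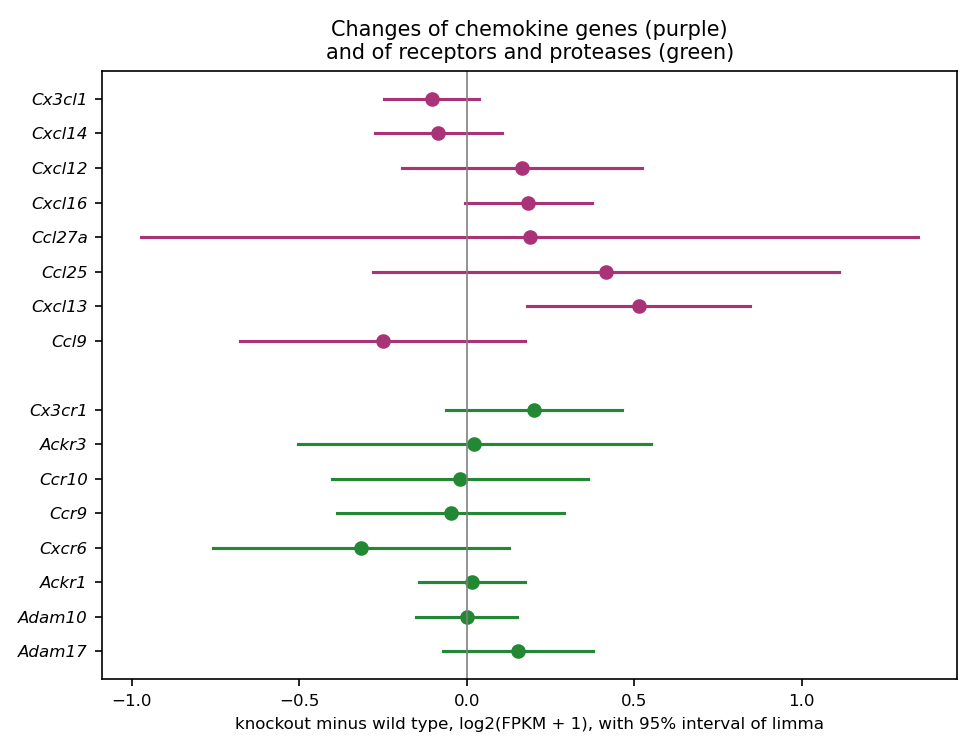
Knockout minus wild type on the log2(FPKM + 1) scale (x axis) with the 95% interval of limma for the 8 tested chemokine genes (purple) and the 8 tested receptors and proteases (green), 3 libraries per genotype. The interval of Cxcl13 lies above 0 (0.18 to 0.85) before adjustment for the number of genes, and each of the other intervals includes 0. Cxcl13 reached the filter only through its knockout values, so its interval does not support a change.

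Cxcl13, Ccl5 and Ccl2 took values on a few steps. Where FPKM is multiplied by relative depth, the values of a low gene fall on whole multiples of 1 step, to within 0.05 of a step, for 1456 of 2632 low genes (55.3%). Only steps that put the smallest nonzero value at 3 steps or fewer were tried, so genes on larger whole numbers were not counted. The low genes counted were detected in most libraries, so Ccl5 and Ccl2 are not among them. The step may be worth 1 fragment or several, so the numbers below are the smallest whole numbers that match the values. These whole numbers were inferred from the FPKM values and are not read counts supplied by the authors.

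Cxcl13 (ENSMUSG00000023078.6, chromosome 5, 95956951 to 95961068, plus strand) encodes the attractant of B cells that organises lymphoid follicles and acts through Cxcr5, and activated macrophages and microglia can make it. It measured 0.340, 0.259 and 0.322 FPKM in the wild-type libraries against 0.970, 0.696 and 0.941 FPKM in the knockout libraries. Each knockout library was at least 0.696 FPKM and each wild-type library at most 0.340 FPKM. These values equal 2, 2 and 2 steps in wild type and 7, 5 and 7 steps in the knockout, 6 against 19 in all. The log2 difference was 0.51 (SE 0.14, 95% interval 0.18 to 0.85, limma unadjusted p = 0.0075 and adjusted p = 0.389), so it was not called, and the exact permutation test, two-sided, gave p = 0.1, the smallest possible. Cxcl13 reached the filter only through its knockout values, so the unadjusted p and the interval do not support a change. The mean was 0.869 ± 0.151 FPKM for knockout against 0.307 ± 0.0423 FPKM for wild type (SD, n = 3 each), 2.83 times as high. On a scale with a pseudocount of 0.1 the log2 difference was 1.24 (adjusted p = 0.384). It was 0.60 within males, 0.46 within females and 0.48 without knockout replicate 3. Its receptor gene Cxcr5 was listed above 0 in 2 libraries, wild-type replicate 1 (0.0676 FPKM) and wild-type replicate 2 (0.0516 FPKM).

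The RefSeq sequence upstream of the start (GRCm38.p6) is shown for Cxcl13 because it is the low member whose genotypes were apart, beside Cxcl12 and Cxcl14 as steadily expressed CXC genes. Capitals mark matches to 2 motifs searched on both strands: GGGNNNNNCC, a loose form of the NF-kB site, and TTCNNNGAA, the STAT site. Each run gives the 250 bases before the start, 5′ to 3′ on the strand of the gene.
Cxcl13, chr5:95956689-95956938, plus strand: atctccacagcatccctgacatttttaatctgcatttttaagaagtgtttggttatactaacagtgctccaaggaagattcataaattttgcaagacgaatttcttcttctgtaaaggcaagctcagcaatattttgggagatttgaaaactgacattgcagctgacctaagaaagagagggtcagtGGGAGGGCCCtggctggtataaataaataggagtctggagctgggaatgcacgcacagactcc
Cxcl12, chr6:117168285-117168534, plus strand: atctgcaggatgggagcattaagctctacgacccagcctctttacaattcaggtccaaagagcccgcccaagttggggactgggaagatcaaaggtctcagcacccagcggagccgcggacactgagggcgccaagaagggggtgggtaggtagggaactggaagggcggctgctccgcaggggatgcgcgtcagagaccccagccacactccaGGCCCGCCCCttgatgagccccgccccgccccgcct
Cxcl14, chr13:56296552-56296801, minus strand: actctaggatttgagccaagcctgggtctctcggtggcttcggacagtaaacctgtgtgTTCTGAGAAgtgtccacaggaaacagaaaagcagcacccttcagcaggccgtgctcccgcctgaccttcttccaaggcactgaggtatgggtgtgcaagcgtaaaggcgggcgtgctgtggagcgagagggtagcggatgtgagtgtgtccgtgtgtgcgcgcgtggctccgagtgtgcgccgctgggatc
The NF-kB pattern began at position −63 from the start in Cxcl13 and at −36 in Cxcl12, and the STAT pattern began at −191 in Cxcl14. The loose NF-kB pattern is in 50.8% of the 32851 promoter windows of 300 bases in the RefSeq table and the STAT pattern in 8.30%, so a match of the first kind is common. Windows were found for 7 of the 10 members (not Cxcl16, Ccl2 and Ccl5), 10 windows in all, of which 6 held the NF-kB pattern and 1 the STAT pattern. By gene, 4 of the 7 members held the NF-kB pattern, as 3 of the 6 windows belong to Ccl27a. Base composition differed between the windows: Cxcl13 held 3 CpG dinucleotides and 44.0% G and C, and Ccl9 held 2 CpG and 43.7%. Cxcl12, Cxcl14 and Cx3cl1 held 20, 22 and 19 CpG with 62.7% to 64.7% G and C, where the median window held 7 CpG and 52.7%. Ccl27a has 3 windows with 11, 12 and 5 CpG and Ccl25 has 2 with 52 and 1, so members of the upper set also held windows below the median.

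Ccl2 and Ccl5 are the inducible CC chemokines that draw monocytes (Ccl2, through Ccr2) and T cells (Ccl5), and neither reached the filter. Ccl2 (ENSMUSG00000035385.5, chromosome 11, 82035571 to 82037453, plus strand) was listed at 0.206 FPKM in wild-type replicate 2, at 0.214 FPKM in knockout replicate 3 and at 0 in the other 4 libraries. Ccl2 was thus near the floor, above 0 in 1 library of each genotype, and no direction can be given. Both values equal 1 step, though the step may be worth several fragments. Ccl5 (ENSMUSG00000035042.2, chromosome 11, 83525778 to 83530518, minus strand) was listed at 0 in each wild-type library and at 0.404, 0.812 and 0 FPKM in knockout replicates 1, 2 and 3. Those values equal 1 and 2 steps, 3 in all, of unknown worth in fragments. The genotypes overlapped through knockout replicate 3, so no direction is given. No fold is given for either gene. The receptor gene Ccr2 was listed above 0 in 1 library only (0.0381 FPKM, knockout replicate 3).

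Ccl9 (ENSMUSG00000019122.8, chromosome 11, 83572919 to 83578636, minus strand), a macrophage inflammatory protein of the Ccr1 group, had the highest wild-type mean of the lower set (0.684 FPKM). It measured 0.872, 0.355 and 0.827 FPKM in the wild-type libraries against 0.522, 0.238 and 0.460 FPKM in the knockout libraries. The genotypes overlapped through wild-type replicate 2. No step was found that put its smallest value at 3 steps or fewer, the only sizes tried, so larger whole numbers remain possible. The fitted difference was −0.25 (SE 0.18, 95% interval −0.68 to 0.18, limma adjusted p = 0.704). The difference was thus within the spread of the libraries.

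**Figure D3:**
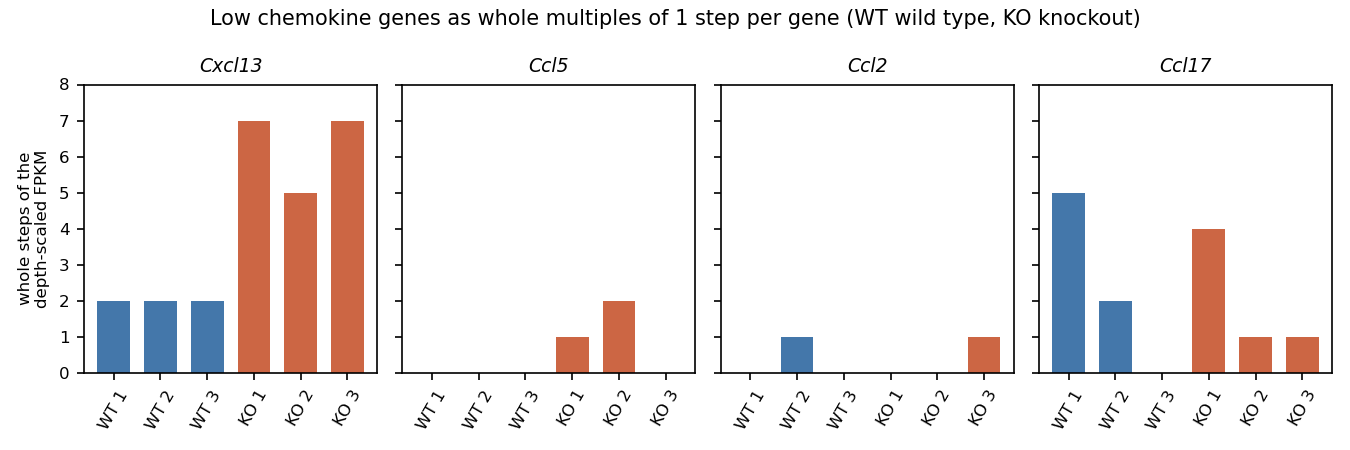
Low chemokine genes as whole multiples of 1 step per gene after scaling by relative depth (y axis, whole steps) in the 3 wild-type (WT, blue) and 3 knockout (KO, orange) libraries. Cxcl13 stands at 2 steps in each wild-type library and at 5 to 7 in the knockout libraries, whereas Ccl5, Ccl2 and Ccl17 vary between 0 and 5 steps with overlapping genotypes.

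Ccl25 and Ccl27a are constitutive epithelial chemokines, known for guiding lymphocytes to the gut and thymus (Ccl25, through Ccr9) and to the skin (Ccl27a, through Ccr10). Ccl25 (ENSMUSG00000023235.14, chromosome 8, 4325210 to 4360020, plus strand) measured 3.15, 2.56 and 0.713 FPKM in the wild-type libraries against 2.90, 3.19 and 2.68 FPKM in the knockout libraries. Wild-type replicate 3 was the only low library, and the other 5 lay between 2.56 and 3.19 FPKM. The log2 difference was 0.42 (SE 0.30, 95% interval −0.28 to 1.11, limma adjusted p = 0.699) and 0.03 without wild-type replicate 3. It was 0.02 within males and 1.20 within females, where wild-type replicate 3 is the sole wild-type library. The RefSeq window of Ccl25 with 52 CpG is at chr8:4324960-4325259 and that with 1 CpG at chr8:4349338-4349637. Its exons share 204 of 7445 bases with Elavl1 on the opposite strand, which measured 15.2 ± 0.859 FPKM in wild type against 13.97 ± 0.863 FPKM in knockout (SD, n = 3 each).

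Ccl27a (ENSMUSG00000073888.13, chromosome 4, 41769467 to 41774247, minus strand) had the widest spread of the tested members. It measured 0.710, 4.69 and 6.75 FPKM in the wild-type libraries, a 9.50-fold range within 1 genotype, against 4.47, 2.75 and 4.44 FPKM in the knockout libraries. All 3 knockout libraries lay within the wild-type range. The log2 difference was 0.19 (SE 0.50, 95% interval −0.97 to 1.35, limma adjusted p = 0.930), although the mean FPKM was slightly lower in the knockout (3.89 against 4.05), and it was −0.46 without wild-type replicate 1. Within males it was 0.81 and within females −0.78. Its transcripts match those of Ccl27b, Gm13306, Gm20878, Gm21586 and Gm21953 at 98.6% to 99.3% identity over 264 to 766 bases, so reads could be split between copies and its value is uncertain. Ccl27b, Gm13306, Gm20878 and Gm21586 were listed at 0 in every library.

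The receptors and enzymes that act with these ligands were also measured. Of 23 receptors 6 reached the filter, and of 3 enzymes 2 did. Of these 8 genes 4 were higher and 4 lower in the knockout, with a median log2 difference of 0.01, and none was called or had an unadjusted p under 0.05 by limma.

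Cx3cr1, the fractalkine receptor of microglia, measured 2.25, 1.79 and 1.96 FPKM in the wild-type libraries against 2.32, 2.60 and 2.40 FPKM in the knockout libraries. All 3 knockout libraries were above the wild-type libraries. The log2 difference was 0.20 (SE 0.11, 95% interval −0.06 to 0.46, limma adjusted p = 0.637). In the same libraries its ligand Cx3cl1 was not higher in any knockout library than the wild-type maximum of 34.3 FPKM. Adam10 and Adam17, the proteases that release Cx3cl1 and Cxcl16 from the membrane, had log2 differences of −0.00041 and 0.15 (limma adjusted p = 0.999 and 0.667). Adam10 measured 15.05 ± 0.793 and 15.04 ± 0.582 FPKM in wild type and knockout and Adam17 5.44 ± 0.373 and 6.17 ± 0.598 FPKM (SD, n = 3 each).

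Cxcr6, the receptor of Cxcl16, had a knockout mean of 0.467 FPKM, under the filter, and was tested only through its wild-type values. It measured 0.482, 1.10 and 0.915 FPKM in the wild-type libraries against 0.629, 0.237 and 0.535 FPKM in the knockout libraries (log2 difference −0.32, limma adjusted p = 0.651), and the genotypes overlapped through wild-type replicate 1. Of the Cxcl12 receptors, Cxcr4 stayed under the filter with a mean of 0.428 FPKM, and the scavenger receptor Ackr3 measured 1.501 ± 0.251 and 1.62 ± 0.843 FPKM (SD, n = 3 each) with 2.54 FPKM in knockout replicate 3. The log2 difference of Ackr3 was 0.02 (limma adjusted p = 0.982) and −0.22 without that library. Dpp4, which trims and inactivates Cxcl12, was under the filter with a mean of 0.432 FPKM.

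Ccr10 and Ccr9, the receptors of Ccl27a and Ccl25, had log2 differences of −0.02 and −0.05 (limma adjusted p = 0.980 and 0.940) at mean levels of 1.38 and 0.571 FPKM. Ackr1, an erythroid and venular decoy receptor, was listed at 54.3 to 64.6 FPKM, far above the other receptors. It shares 361 of 1405 exon bases (25.7%) with the neuronal adhesion gene Cadm3 on the same strand, which measured 94.4 to 104 FPKM, so reads could be assigned to either gene and the Ackr1 level is uncertain. The red blood cell markers summed to 2.53 to 6.36 FPKM over the 6 libraries. Most of that sum was Hba-a1 (mean 4.43 FPKM), while Hbb-bs had a mean of 0.00833 FPKM and Hbb-bt was not listed. The sum is therefore a poor measure of blood content.

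**Figure D4:**
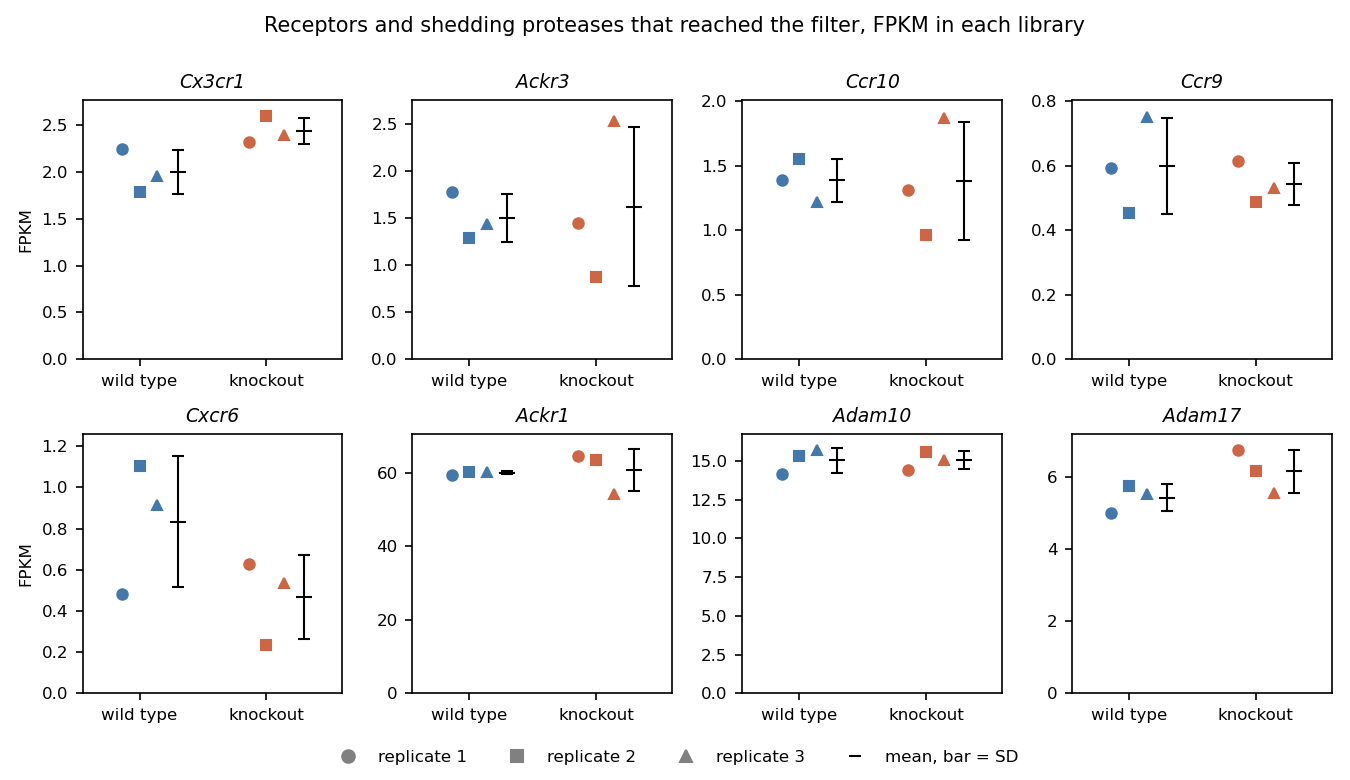
FPKM (y axis, linear, from 0) of the 6 receptors and 2 shedding proteases that reached the filter, in 3 wild-type and 3 knockout libraries; symbols mark the replicate number, and the dash and bar give the mean and SD (n = 3). Only Cx3cr1 shows no overlap between genotypes, and Ackr3 and Ccr10 each have their highest value in knockout replicate 3.

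The other 31 chemokine ligands listed were nearly all low. Only Ccl17 and Ccl28 reached the filter, 15 were listed at 0 in every library, and 29, those 15 included, at 0 in at least 1. Ccl17, a ligand of Ccr4, which T cells carry, measured 2.61, 0.798 and 0 FPKM in the wild-type libraries against 1.71, 0.428 and 0.414 FPKM in the knockout libraries, or 5, 2 and 0 steps against 4, 1 and 1. Ccl28, an epithelial chemokine that shares Ccr10 with Ccl27a, measured 0.489 ± 0.375 and 0.546 ± 0.115 FPKM (SD, n = 3 each, limma adjusted p = 0.924). The interferon-induced ligands Cxcl9, Cxcl10 and Cxcl11 and the neutrophil attractants Cxcl1 and Cxcl2 were at most 0.333 FPKM in any library. Higher single values were listed for Ccl12 (0.926 FPKM, wild-type replicate 3 only) and Ccl4 (0.712 FPKM in wild-type replicate 1, 0.292 FPKM in knockout replicate 2). Pf4 was listed at 0.346 and 0.669 FPKM in knockout replicates 2 and 3 and at 0 elsewhere. The highest mean below the filter among the other ligands was 0.238 FPKM (Ccl6, 4 steps in all in wild type and 9 in the knockout, with 5 of those in knockout replicate 2).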

How the data were processed

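Polyadenylated RNA of mouse retina was measured in 3 Unc119+/+ and 3 Unc119-/- libraries. Per the submitters' processing notes, TopHat2 2.1.1 and Cuffdiff 2.2.1 were used on mm10 (GRCm38). The authors deposited 1 table of FPKM values per library, a unit taken from the file headers. These are not counts. The sources used here name no annotation, strand setting, absolute depth or scaling between libraries.

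The genotypes were compared on log2(FPKM + 1) with limma 3.58.1 (R 4.3.3), two-sided, the variance prior following the mean, adjusted by Benjamini-Hochberg over the 14176 genes with a mean of at least 0.5 FPKM; log2 differences understate changes of low genes. The fit was tested on simulated data. No pair of libraries was identical, and correlations of log2 values between libraries ran from 0.959 to 0.984. Relative depth came from the most frequent ratio between libraries of values of at most 0.3 FPKM, within 0.015 log2 units. Sex was read from Xist against Ddx3y, Eif2s3y, Kdm5d and Uty. Single genes were permuted exactly in scipy 1.17.1, which cannot go below 0.1. Exon overlaps came from GENCODE M21, and near copies from BLAST 2.17.0 (at least 95% identity over at least 200 bases). The members, lists and tests were chosen with earlier results of these data known. Named genes are the members, Unc119, receptors, enzymes and other ligands with a mean of at least 0.5 FPKM, overlapping genes and up to 3 markers per list; other genes named were chosen after their values were seen. Alternatives were another pseudocount, 2 other filters, quantile normalization, no trend, a replicate block, a sex or lens term, and leaving out each library.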

Additional observations from a re-analysis of the deposited data

How the results depend on the processing

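No chemokine, receptor or enzyme was called under any of the 14 alternatives. Of 220 log2 differences of the 16 tested genes under them, 202 kept their sign and 18 reversed, all in genes that were not called. Without wild-type replicate 1 those of Cxcl12 and Ccl27a were −0.0021 and −0.46, and their highest values with a library left out were 0.26 and 0.63. Ccr9 was 0.037 with the lens term and ran from −0.11 to 0.020 (without wild-type replicate 3) when single libraries were left out. Ccr10 was 0.00011 with the sex term and between −0.16 and 0.11 (without knockout replicate 2) when single libraries were left out. Ackr1 was −0.029 and −0.02 without knockout replicates 1 and 2 and at the highest 0.094 with a library left out and 0.10 with the lens term. Ackr3 was −0.0023 with a pseudocount of 0.1, −0.048 with quantile normalization, −0.20 with the lens term, and between −0.22 (without knockout replicate 3) and 0.24 when single libraries were left out. Adam10 was 0.0044 with the lens term, between −0.041 and 0.028 when single libraries were left out, with 0.01 without wild-type replicate 2. Cxcl13 ran from 0.44 to 1.24 (adjusted p 0.150 to 0.842) and Cxcl16 from 0.14 to 0.22 (0.462 to 0.931).

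Over all genes, 29 were called higher and 4 lower. The number called higher was 17 without the trend, 13 with the replicate block, 17 with the sex term, 5 with the lens term, and 9 to 14 when single libraries were left out. The number called lower was 2 with no filter, the replicate block, the sex term or the lens term, and 2 to 4 when single libraries were left out. The cause was not tested. Same-numbered libraries differ in genotype, so they cannot come from the same animal. The labels do not say that equal numbers mark a shared litter or batch. Deviations of same-numbered libraries correlated at 0.07, −0.09 and −0.12 for replicates 1, 2 and 3, and those of other-numbered libraries at −0.08 to 0.17. With 3 libraries per genotype these values cannot decide whether same-numbered libraries share more than a number. With the replicate block Cxcl13 had an adjusted p of 0.554. Cxcl13, Ccl5 and Ccl2 rest on few steps, and where a step is worth 1 fragment their precision is limited by depth.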
